A study of Mus musculus with 24 samples.

Results

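N6-methyladenosine (m6A) peaks of mouse spinal cord on day 3 after spared nerve injury were set against those of sham-operated mice. A peak was called strict when its fold enrichment, the ratio of antibody-enriched over input signal, was at least 2 and its log10 p was at most -5. A strict peak that shared no base on the same strand with any peak of the other full list was called gained when it stood in the day 3 list and lost when it stood in the sham list. Of 22097 strict peaks in the day 3 list, 3450 (15.6%) were gained, and of 21808 in the sham list, 606 (2.78%) were lost.

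In spared nerve injury the tibial and common peroneal branches of the sciatic nerve are tied and cut, and the sural branch is left. Sham mice had the nerve and its branches exposed and closed again, and are labelled day 3. Cords were also taken on days 7 and 14 after the injury, and each of the 4 groups had 3 input and 3 m6A antibody libraries of poly(A) RNA. No label used here gives the strain, sex or age of the mice, or how many animals went into a library.

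Adenosines of messenger RNA are methylated in the nucleus by a complex of METTL3 and METTL14 with the scaffold proteins WTAP and VIRMA, mostly within a GGAC-like sequence. The mark is removed by FTO and ALKBH5 and is bound by reader proteins such as the YTH family, and it affects splicing, export, translation and decay of the RNA. In most mammalian tissues it is densest near the stop codon and in the 3' untranslated region (UTR). The spinal cord receives the injured sensory axons and holds the motor neurons whose axons run in the same nerve.

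The antibody recognises fragments, so a peak marks a stretch of RNA and not a base. To show what such stretches hold, the 30 transcript bases around a GGAC are printed for genes whose RefSeq start (GRCm38.p6) lay under a gained or lost peak, with the first GGAC of the transcript in capitals. Predicted genes and genes of low RNA level were left out, as set out below, and so were some genes not reported here. Of the rest with a GGAC in the first 50 bases, the 6 gained peaks of highest fold enrichment and the 2 lost peaks are printed. All are 5' to 3' on the gene's strand.
Sfmbt2, gained, chr2:10372456-10372485, plus strand: atgaggctgtagtgggagctggaGGACccg
Tmem129, gained, chr5:33657933-33657962, minus strand: cccgccagtagccGGACttggactccgttt
Prss12, gained, chr3:123446919-123446948, plus strand: tggggtggaggtcGGACtccgggctacaga
Atp6v1f, gained, chr6:29467797-29467826, plus strand: cgctctgcccggcGGACaggatggcgggca
Fam135a, gained, chr1:24100305-24100334, minus strand: gggccgcgggccgGGACctgttgaacgcag
Nid1, gained, chr13:13437602-13437631, plus strand: gggaggtgaggagGGACtgcggaggggcgt
Efnb2, lost, chr8:8661208-8661237, minus strand: ctctccgcggcggGGACagaggcaccggtc
Zc3hc1, lost, chr6:30390991-30391020, minus strand: atttacggccGGACcaagatggcggctacc

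These 8 peaks had fold enrichments of 24.6 (Sfmbt2), 21.1 (Tmem129), 18.8 (Prss12), 18.1 (Atp6v1f), 14.1 (Fam135a), 12.1 (Nid1), 11.2 (Efnb2) and 3.95 (Zc3hc1). Atp6v1f encodes a subunit of the vesicle proton pump and had the smallest p among them, with a log10 p of -54.6. GGAC was about as frequent at gained as at other starts. Of 357 starts under gained peaks, 20.7% held GGAC in their first 50 bases, against 19.9% of 1424 starts under shared day 3 peaks and 18.9% of all starts in the table. The longer form GGACT stood in 4.2%, 5.41% and 5.76% of the same 3 sets. Of 42 starts under lost peaks, 6 held GGAC. Only the transcript strand was searched, and a match is a description of letters, not a methylated site.

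The gained peaks lay in 3133 genes, 23.4% of the 13397 genes with a strict day 3 peak. The lost peaks lay in 580 genes, 4.71% of the 12304 genes with a strict sham peak. There was 1 deposited list per group, so these counts have no replicate error and no test. The day 3 list was also the longer, with 40195 peaks against 32669 in the sham list.

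The day 3 and day 14 lists held nearly the same sites. Of strict day 3 peaks, 1.81% had no shared base in the day 14 list, 10.9% had none in the day 7 list, and 15.6% had none in the sham list. Strict day 14 peaks behaved alike, with 15.4% missing from the sham list and 10.8% from the day 7 list. Of strict day 7 peaks, 9.32% were missing from the sham list, 1.62% from the day 3 list and 1.38% from the day 14 list. Of strict sham peaks, 6.28% were missing from the day 7 list, 2.78% from the day 3 list and 2.6% from the day 14 list. The input libraries showed a split of their own: sham library 3 and day 7 library 3 had correlations of 0.925 to 0.943 with the other 10 libraries and of 0.983 with each other, while the other 10 had 0.979 to 0.988 among themselves. The 2 groups that hold those libraries are the 2 with the shorter peak lists, and the part of these libraries in the gained and lost counts was not tested, since the lists have no column for single libraries.

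**Figure D1:**
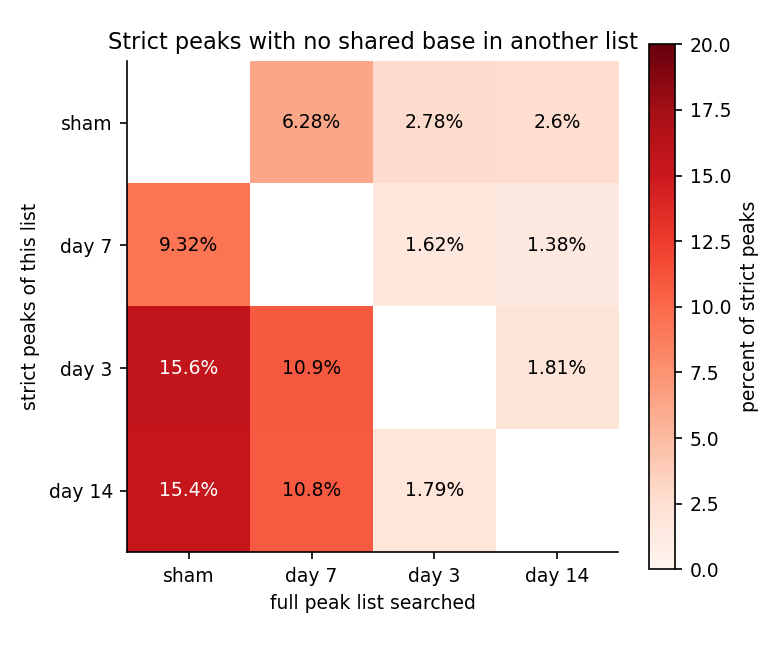
Share of the strict peaks of each list (rows) that shared no base on the same strand with any peak of another full list (columns), in percent. The day 3 and day 14 rows are high against sham (15.6% and 15.4%) and against day 7 (10.9% and 10.8%), and low against each other (1.81% and 1.79%).

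Gained peaks were shorter and weaker than the peaks that day 3 shared with sham. Their median fold enrichment was 3.00 against 5.80 for shared day 3 peaks, and 49.6% of them lay between 2 and 3, against 14.3% of shared peaks. Their median exonic length was 270 bases against 592. Lost peaks had a median fold enrichment of 3.76 against 6.44 for shared sham peaks, and a median length of 179.5 bases against 391. Both groups had a strong tail: 242 gained peaks (7.01%) and 123 lost peaks (20.3%) reached a fold enrichment of 10. Near the threshold the counts were even, with 385 unmatched day 3 peaks at a fold enrichment of 2 to below 2.2 and 401 at 1.8 to below 2. Unlike the shares above, these counts leave out predicted genes and genes of low RNA level, by the rule set out below for named genes. The peaks just inside the threshold included those of Hacd3 and Snx22 at 2.00, and those just outside it of Ahnak2, Hnrnpu and Rprd1a at 1.99. For lost peaks the same counts were 52 and 63, with Mtus2, Fbxo27 and Nsd3 just inside at 2.00 and Lrrc57, Parn and Rpn1 just outside at 1.99.

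The 2 kinds of peak lay in different parts of the gene. By the annotation in the authors' deposited lists, 56.6% of gained peaks were in the 3' UTR, 22.1% in other exons and 21.3% in the 5' UTR, against 62.1%, 23.6% and 14.3% of shared day 3 peaks. Lost peaks were in other exons in 38.9%, in the 3' UTR in 32.8% and in the 5' UTR in 28.2%, where shared sham peaks had 29.4%, 56.6% and 14.0%. Gained peaks often ran to the outer end of the gene: 34.8% ended on its last base and 15.6% started on its first base, against 23.8% and 12.5% of shared day 3 peaks. Only 6.37% of lost peaks ended on the last base, against 15.1% of shared sham peaks. Lost peaks too started on the first base more often than shared sham peaks, in 12.9% against 7.81%. Over whole lists, peaks that reached either end were 35.1% on day 3 and 30% on day 14, and 21.6% in sham and 22.8% on day 7.

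The share of gained peaks was also higher where the gene's RNA was more abundant. It was 11.2% of strict day 3 peaks in genes below an FPKM (fragments per kilobase of RNA, scaled to library depth) of 1, 17.2% at 5 to below 20, and 29.1% at 100 and above. The share of lost peaks among strict sham peaks went the other way, from 3.36% below an FPKM of 1 to 0.488% at 100 and above. That last value is 1 lost peak of 205, and the share at 20 to below 100 was 1.68% (31 of 1842). Peaks that ended on the last base were gained in 21.3%, those that started on the first base in 18.8%, and those at neither end in 12.6%.

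**Figure D2:**
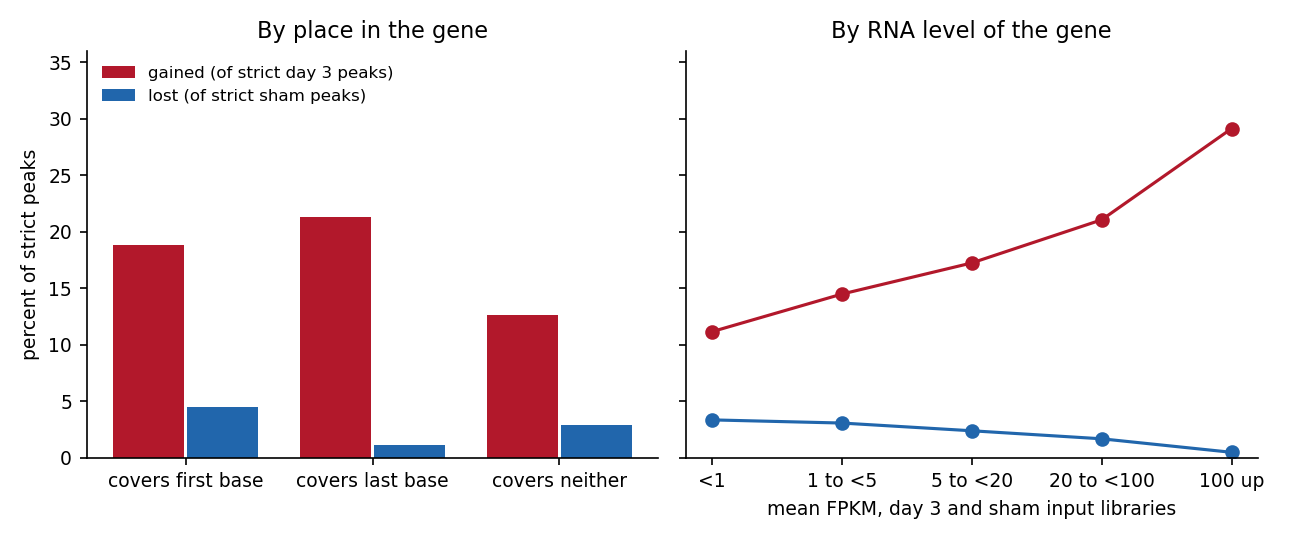
Gained peaks as a percentage of strict day 3 peaks (red) and lost peaks as a percentage of strict sham peaks (blue), by whether the peak covers the first base, the last base or neither end of its gene (left), and by the mean FPKM of the gene over the 6 day 3 and sham input libraries (right). The gained share rises from 11.2% to 29.1% with the RNA level while the lost share falls from 3.36% to 0.488% (1 peak of 205).

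Most genes with gained peaks also held a strict sham peak. Of the 3133 genes with gained peaks, 1864 (59.5%) held a strict sham peak elsewhere and 991 (31.6%) had no sham peak of any strength. Of the 580 genes with lost peaks, 422 (72.8%) held a strict day 3 peak elsewhere and 68 (11.7%) had no day 3 peak. The matching shares over all genes with a strict peak were not computed, so these shares do not set the genes apart. Both a gained and a lost peak were found in 98 genes, which is 3.13% of the genes with gained peaks and 16.9% of those with lost peaks. A single gained peak was found in 2841 genes and more in 292. Macf1, a giant protein that links microtubules and actin, had the most, with 4 gained peaks of fold enrichment 3.97 to 24.6 beside 7 strict sham peaks. Genes with 3 gained peaks included Atrx, Capn15, Kmt2c and Kmt2d, and also Crebrf and Csf2ra, neither of which had a sham peak. Atrx is a chromatin remodeller, Capn15 a calpain protease, Crebrf a regulator of the unfolded protein response and Csf2ra a receptor chain for granulocyte-macrophage colony-stimulating factor.

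The strongest gained peaks lay in genes of varied function. The peak of Sh3glb2 (endophilin B2, of membrane curvature) had a fold enrichment of 97.3 and a log10 p of -120. It covered the first base of the gene at chr2:30355327-30359337 on the minus strand, was 47.2 on day 14 and was missing on day 7. Nkain1, an interactor of the sodium pump, had 65.7 at the end of its 3' UTR (chr4:130531602-130531899), with 25.4 on day 7 and 130 on day 14. Hira, a chaperone of histone H3.3, had 48.7 in its 5' UTR. Cyb5r4, a reductase of the endoplasmic reticulum, had 42.2 in an exon with a log10 p of -10.8. Cadm4, an adhesion molecule of myelinated axons and glia, had 36.7 at its first base with a log10 p of -150. The 12 strongest also included those of Fam193b and Fam205a1 (34 each), Ccl27b (29.3), Abhd2 and Rab40c (28.1 each) and Rps12 (26.3). Of the 12, 6 covered the first base, 9 had a peak on day 14 and 4 on day 7. Ccl27b and Fam205a1 belong to a cluster of near-identical copies on chromosome 4, so their reads may have been split, and these values are uncertain.

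Among genes with no strict sham peak at all, the 12 strongest gained peaks included those of Col24a1 (a fibrillar collagen, 24.6), Tnni1 (slow skeletal troponin I, 24.6), Ly6c1 (an endothelial and myeloid surface protein, 24.6), Sfmbt2 (a polycomb-related protein, 24.6) and Tekt2 (a tektin of cilia, 21.1). Their log10 p values were -5.99 to -9.19, so a high ratio here went with a p near the threshold. The gained peaks of smallest p, chosen after their values were seen, were a different set: Gapdh (glycolysis, fold enrichment 15.1, log10 p -4290), Mt2 (metallothionein, 4.06, -1760), Psap (lysosomal prosaposin, 2.52, -1430), Cox6a1 (respiratory chain, 5.36, -1190), mt-Atp8 (mitochondrial ATP synthase, 8.02, -1150), Atp1b2 (glial sodium pump subunit, 2.88, -1060), Aplp1 (amyloid precursor-like, 2.97, -1030), Tuba1a (tubulin, 2.04, -831), Eno1 (glycolysis, 5.89, -827) and Ywhah (a 14-3-3 protein, 3.73, -762). Gapdh and Eno1 have pseudogene copies and mt-Atp8 overlaps mt-Atp6, so their counts may be shared. These are abundant RNAs, with mean FPKM of 24.6 (Gapdh) to 592 (Tuba1a).

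The strongest lost peaks lay mainly in 5' UTRs. Zbed4, a zinc finger protein, had 84.4 in the 3' UTR in sham, no day 3 peak there, and 380 on day 14. H2ac18, a replication-dependent histone H2A with a near-identical copy, had 45.3 and was missing on all 3 injured days. Nanp, of sialic acid synthesis, had 42.2 in sham, 7.98 on day 7 and 6.15 on day 14. The next in order were the cation channel Trpm3 (39.7), the adenylyl cyclase Adcy5 (35.6), the tetraspanin Tspan4 (33.1), and Rab22a and Zfpm2 (30.6 each), a small GTPase of endosomes and a cofactor of GATA factors. The alpha-1D adrenergic receptor Adra1d (29.8), Csk (28.1), the kinase that holds Src family kinases inactive, Gas2l1 (27.3) and Tsn (25.7) followed. Of these 12, 9 were annotated to the 5' UTR, 6 covered the first base and none the last, and 9 had a peak again on day 14. Among genes with no strict day 3 peak, lost peaks were found for Rhoa, the small GTPase of actin dynamics (17.4), Arnt2, a bHLH transcription factor of neurons (9.10), Septin2 (9.10) and Nfat5, the osmotic stress factor (8.28). The lost peak of smallest p, chosen after its value was seen, was in an exon of Rtn4, which encodes the myelin inhibitor Nogo: 3.18 in sham with a log10 p of -176, then 1.44 on day 7 and 1.30 on day 14.

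Functions were read from 16 gene lists and 13 gene families by name, against the 23.4% of genes with a gained and the 4.71% with a lost peak. The lists hold 97 gained peaks in 84 genes and 18 lost peaks in 18 genes. No set test was made, the lists are small, and a count of a few genes above or below these shares singles out no list.

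Glutamate receptor genes had the highest share of gained peaks among the 16 lists. Of 22 of them, ionotropic and metabotropic, with a strict day 3 peak, 9 (40.9%) held a gained peak and 0 of 22 a lost one, at a median FPKM of 5.04 against 3.91 for all genes with a strict day 3 peak. They were the NMDA receptor subunits Grin1, Grin2a and Grin2b, the AMPA subunits Gria3 and Gria4, the kainate subunits Grik1, Grik3 and Grik4, and Grm5. All 9 had a strict sham peak elsewhere, but so had all 22 genes of the list a strict sham peak. Of the 10 gained peaks in these 9 genes, 6 ended on the last base of the gene, against 34.8% of all gained peaks. The peak of Grin2b at chr6:135713233-135713593 had 15.1 on day 3, 25.4 on day 7 and 8.01 on day 14. That of Grin1 was broad, 1139 bases, with 2.80 on day 3, none on day 7 and 2.48 on day 14. It overlaps the antisense gene Grin1os, and no label or header used here states how the peak caller treated strand. The others lay between 2.52 (Grm5) and 4.98 (Grik1).

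Synaptic scaffold and adhesion genes held gained peaks in 9 of 29 (31.0%) and lost peaks in 3 of 28. The gained ones included Bsn, Pclo, Dlg4 (PSD-95), Dlgap1, Gphn, Nlgn2 and Nrxn2, all between 2.05 and 3.99. The lost ones were Dlg4 (3.44, in the 5' UTR), Nrxn3 (5.06) and Shank2 (4.78), so Dlg4 had both. Among inhibitory transmission genes 5 of 15 held a gained peak (33.3%). Gad2, which makes GABA, had 17.6 at its first base, 4.83 on day 14 and none on day 7. The GABA receptor subunits Gabra2, Gabra5 and Gabbr2 had 2.64, 4.69 and 2.50. Sodium and calcium channel genes held gained peaks in 6 of 23, among them the calcium channel genes Cacna1a, Cacna1g, Cacna1h, Cacna1i and Cacna2d2 (2.00 to 4.69). Cacna1c, the Cav1.2 channel, had a lost peak of 10.2.

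Axon guidance genes held as many lost as gained peaks. Gained peaks were found in 5 of 31 (Efnb3, Plxna1, Sema3c, Slit2, Unc5b) and lost peaks in 5 of 32 (Efnb2, Nrp1, Ntn1, Plxnd1, Robo2), 16.1% and 15.6%. The netrin receptor Unc5b had the strongest gained peak at 12.9, with 15.1 on day 7 and 10.4 on day 14. Its ligand Ntn1 had a lost peak of 5.46 in an exon. The ephrin Efnb2, whose start is printed above, had a lost peak of 11.2 and a day 14 peak of 43.9.

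Axon injury genes held gained peaks in 6 of 21 (28.6%). Of those 6, 5 had no sham peak at all, against 31.6% of all genes with gained peaks. The mean sham FPKM of these 5 was 0.716 for Sprr1a, 0.462 for Vip, 4.04 for Sarm1, 10.2 for Ecel1 and 16.8 for Npy. The part of a low sham RNA level in the missing sham peaks was not tested. Sprr1a, which rises in injured neurons and promotes neurite growth, had 6.17 at the end of its 3' UTR with a log10 p of -180, then 6.03 on day 7 and 4.92 on day 14. Ecel1, an endopeptidase of injured motor neurons, had 2 gained peaks of 5.59 and 10.6. The axon degeneration gene Sarm1 had 2.87, and the neuropeptides Npy, Vip and Cck had 2.14, 3.39 and 2.05. Csf1, the factor by which injured neurons signal to microglia, had a lost peak of 2.76 in an exon beside 2 strict day 3 peaks.

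Immune and glial lists were close to or below the background share, apart from astrocytes. Microglia and complement genes held gained peaks in 4 of 19 (21.1%): Bin2 (4.42), complement C4b (2.67, uncertain, since mice carry a near-identical copy), the protease cathepsin S gene Ctss (2.02) and Fcrls (2.22). The CSF1 receptor gene Csf1r had a lost peak of 2.83 in the 3' UTR. Cytokine genes held a gained peak in 1 of 17 (Nfkbia, the NF-kappaB inhibitor, 2.27) and a lost peak in 1 of 15 (Il1r1, 5.32). Myelin genes held gained peaks in 4 of 22 (among them Opalin 3.29, Cldn11 2.2 and 2.45, Myrf 2.40), although their median FPKM was 56.3. Astrocyte genes held them in 5 of 14 (35.7%), at a median FPKM of 28.8: Gfap (2.53), the glutamate transporter Slc1a2 (3.00), Atp1b2 (2.88), Fgfr3 (4.80) and Serpina3n (2.42), and a lost peak in Sox9 (2.03).

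Of the genes that write and read the mark itself, 3 of 9 methyltransferase complex genes held gained peaks: Mettl14 (2.80), Virma (2.12) and Wtap (2.58), each in the 3' UTR. Mettl14 had no sham peak, while Virma had 6 strict sham peaks. Of 10 demethylase and reader genes, Fmr1 (2.33) and Prrc2a (4.92) held gained peaks. The demethylase gene Alkbh5 had a lost 5' UTR peak of 5.32 with a log10 p of -38.7 and no peak there on day 7 or day 14. Its 2 day 3 peaks elsewhere were not strict.

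Chromatin genes held gained peaks in 12 of 37 (32.4%) and lost peaks in 0 of 38. They were the histone methyltransferases Kmt2a, Kmt2c, Kmt2d, Setd1a and Setd2, the demethylases Kdm2a, Kdm3a, Kdm5b and Kdm6a, the DNA demethylases Tet1 and Tet2, and Hdac1. The highest fold enrichments were those of Tet1 (22.3), Kdm3a (18.8) and Kdm5b (10.9), with log10 p of -6.43 to -8.90. Of their 17 gained peaks, 15 had a peak on day 7 and 15 on day 14. Central sensitisation kinase and transcription factor genes held gained peaks in 6 of 18 (among them Akt1, Creb1, Fyn, Prkaca and Rps6kb1, at 2.11 to 6.45). Neurotrophic genes held them in 4 of 19, with Fgfr1 at 11.7 and Ntrk3, the neurotrophin 3 receptor, at 2.63 and 4.69, and held lost peaks for Egfr (4.33) and Gfra1 (3.80). Of immediate early genes, Arc (3.89), Junb (2.22) and Nr4a3 (3.31) held gained peaks and Fosb a lost one of 23.2 at a mean FPKM of 0.246.

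**Figure D3:**
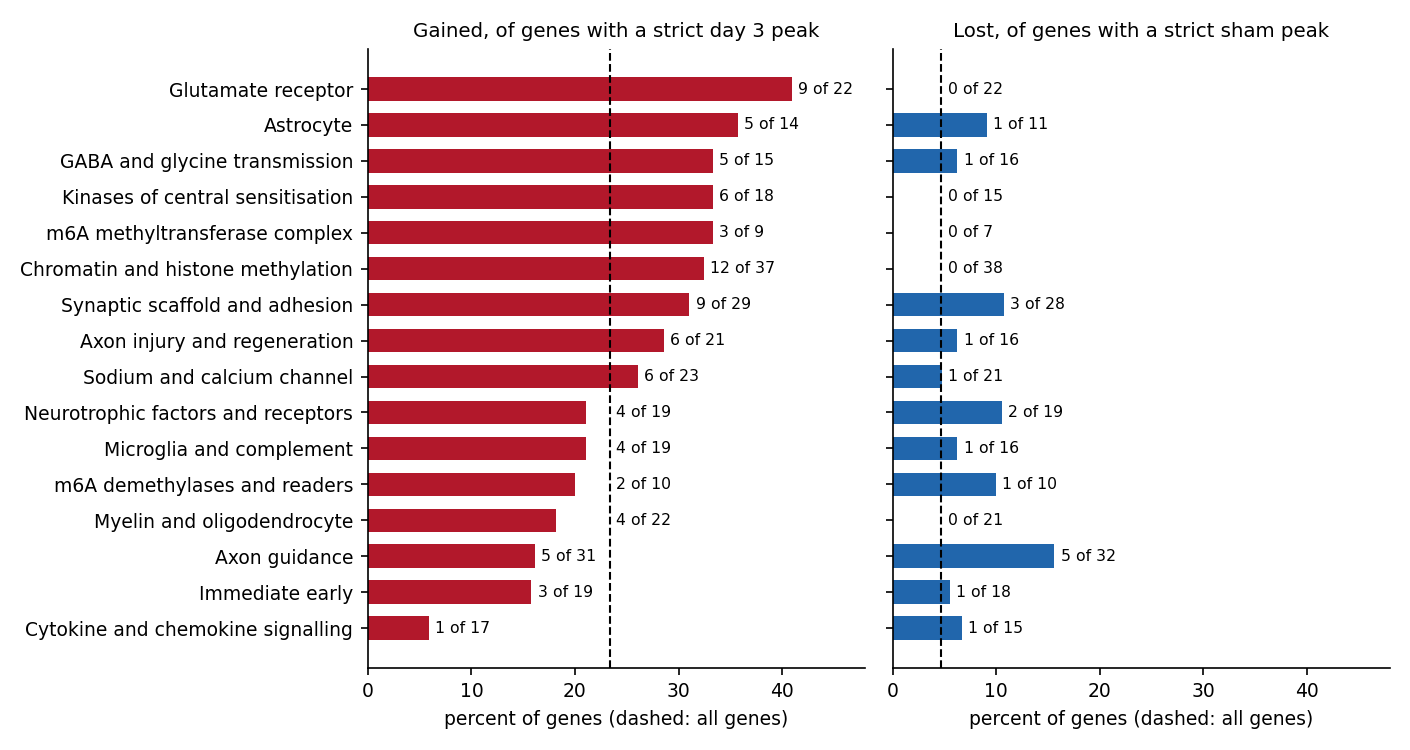
Percentage of the genes of each list that held a gained peak, of those with a strict day 3 peak (left, red), and a lost peak, of those with a strict sham peak (right, blue), with the number of genes beside each bar and the share over all genes dashed (23.4% and 4.71%). Glutamate receptor genes (9 of 22) stand highest on the left and axon guidance genes (5 of 32) on the right.

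Among the gene families, protocadherins had gained peaks in 6 of 68 (8.82%) and ubiquitin-specific proteases in 4 of 43 (9.30%), both below the 23.4% of all genes. Zinc finger (Zfp) genes had them in 63 of 354 (17.8%) at a median FPKM of 2.24, and solute carriers in 59 of 229 (25.8%). Collagens had 8 of 25 (32.0%) despite a median FPKM of 1.39. Ribosomal protein genes had gained peaks in 6 of 26 and lost peaks in 3 of 22. By the gene ontology terms in the deposited lists, 24.3% of annotated genes held a gained peak, and axon (111 of 364, 30.5%) and synapse (180 of 601, 29.95%) stood above, at median FPKM of 9.81 and 9.22 against 4.82. Transcription factor activity (96 of 512, 18.8%) and inflammatory response (27 of 139, 19.4%) stood below, at median FPKM of 3.10 and 1.76. Of lost peaks, inflammatory response held the highest share among the 20 terms, 11 of 130 (8.46%) against 4.74% of annotated genes.

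Most gained sites were found again in the day 14 list. Of the 3450 gained peaks, 3188 (92.4%, exact 95% binomial interval 91.5 to 93.3) shared a base with a day 14 peak and 1754 (50.8%, 49.2 to 52.5) with a day 7 peak, against 98.2% and 89.1% of all strict day 3 peaks. They were on both later days in 48.7%, on day 14 only in 43.7%, on day 7 only in 2.12% and on neither in 5.48% (189 peaks). The interval covers counting error over peaks only. Of the 606 lost peaks, 334 (55.1%) shared a base with a day 7 peak and 361 (59.6%) with a day 14 peak, and 151 (24.9%) were on neither. Over all strict sham peaks the day 7 and day 14 shares were higher, 93.7% and 97.4%. Counted over strict later peaks alone, the gained shares were 34.1% on day 7 and 70.2% on day 14, against 81.7% and 89.6% of all strict day 3 peaks. The lost shares were 22.4% and 20.1%, against 86.3% and 88.2% of all strict sham peaks. The day 3, day 7 and day 14 lists are each set against the same single sham list.

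**Figure D4:**
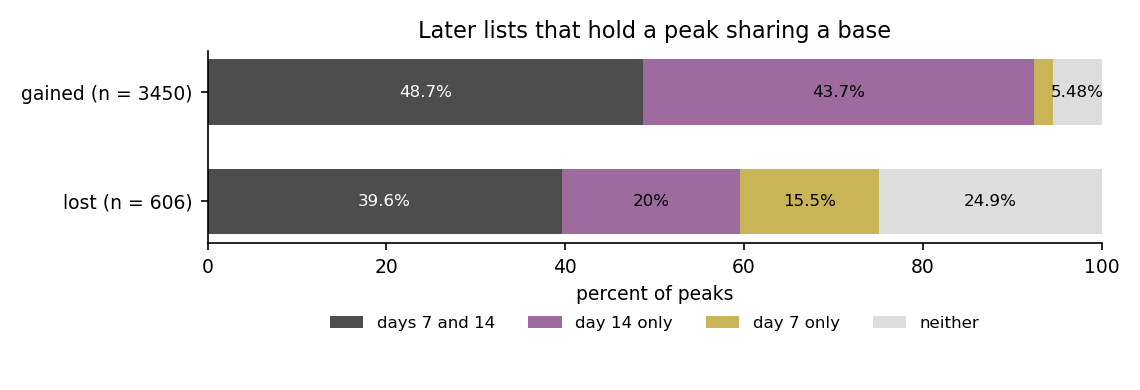
Percentage of the 3450 gained and 606 lost peaks that shared a base with a peak of both later lists, of day 14 only, of day 7 only or of neither. Gained sites were on day 14 only in 43.7% and on day 7 only in 2.12%, while of lost sites 121 were on day 14 only and 94 on day 7 only.

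The RNA of genes with gained or lost peaks was compared between day 3 and sham in the input libraries, with limma on log2(FPKM + 0.5) over 15564 genes and Benjamini-Hochberg adjustment. Of 2843 tested genes with gained peaks, 3 rose and 0 fell. Over all genes tested 9 changed, 0.0578%: 8 rose, 0.0514%, and 1 fell, 0.00643%. Of 489 tested genes with lost peaks, 0 passed in either direction, and 23 (4.70%) had an unadjusted p under 0.05 in the same limma fit, against 4.75% of genes with gained peaks and 6.24% of all genes tested. The median log2 fold change was 0.03 for genes with gained peaks, -0.02 for genes with lost peaks and 0.03 for all genes tested.

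Sprr1a had an FPKM of 0.416, 0.158 and 1.57 in the sham libraries and of 16.0, 14.9 and 14.8 on day 3. The groups were far apart, and the log2 fold change was 3.87 ± 0.32 (SE; limma adjusted p 0.00178, n = 3 and 3). S100a11, a calcium-binding protein of injured neurons and glia, had 4.40, 4.57 and 4.77 in sham and 7.83, 8.36 and 8.43 on day 3, a log2 fold change of 0.78 ± 0.08 (limma adjusted p 0.00586). Bin2, a membrane-binding protein of microglia, had 1.8, 1.58 and 1.13 in sham and 3.07, 3.25 and 3.58 on day 3, a log2 fold change of 0.94 ± 0.13 (limma adjusted p 0.0355). In all 3 genes every day 3 library lay above every sham library. Apart from sham library 3 and day 7 library 3, libraries of a group lay close together, with median absolute log2 differences of 0.036 to 0.040, against 0.388 to 0.427 for pairs with 1 of those 2 libraries. Whether they came from separate animals is not given, so these p-values measure the spread between libraries, and that spread may be technical. None of the 3 passed with only the day 3 and sham libraries in the fit (limma adjusted p 0.168, 0.168 and 0.570), or with close libraries of a group averaged into 6 samples, an alternative chosen after seeing the data that takes the lone day 3 sample to vary like the others (limma adjusted p 0.998). S100a11 also lost its call without day 3 library 3, and Bin2 without any 1 of the day 3 libraries or sham library 2 (highest limma adjusted p 0.0554 and 0.232).

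Fcrls, Ctss and Csf1r also had all day 3 libraries above all sham libraries without passing. So did other genes with gained or lost peaks, among them Ecel1, Sh3glb2, Cadm4, Csf1 and Tspan4. How many of all tested genes had this separation was not counted, so it does not set microglial genes apart. Fcrls had an FPKM of 4.36, 4.68 and 2.68 in sham and 7.65, 6.73 and 6.62 on day 3 (limma adjusted p 0.226). Ctss had 37.4, 35.7 and 42.4 in sham and 52.4, 48.5 and 52.2 on day 3 (limma adjusted p 0.544). Csf1r, with a lost peak, had 12.12, 11.04 and 7.979 in sham and 15.86, 15.04 and 15.5 on day 3 (limma adjusted p 0.239). The summed FPKM of the microglia markers Cx3cr1, P2ry12 and Tmem119 was 16.8 to 18.7 in sham and 23.5 to 24.2 on day 3, and in bulk cord more cells and more RNA per cell cannot be told apart. Summed neuron markers were 478 to 514 in sham and 529 to 530 on day 3, astrocyte markers 410 to 451 and 454 to 457, and motor neuron markers 20.6 to 24.1 and 18.1 to 18.6. Summed haemoglobin and Alas2 was 189 to 318 in sham and 424 to 517 on day 3. Oligodendrocyte markers overlapped, at 2723 to 3504 in sham and 3012 to 3024 on day 3, and Schwann cell markers were at or below 0.484 in both groups. The part of these cells in the peak lists was not tested.

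**Figure D5:**
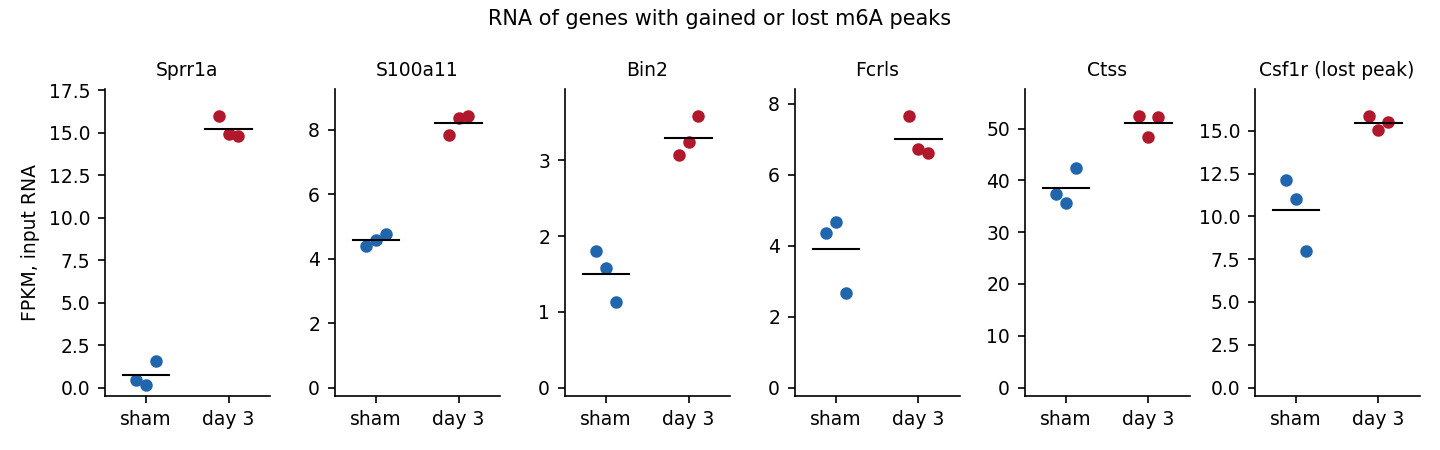
FPKM of 6 genes in the 3 sham (blue) and 3 day 3 (red) input libraries, 1 point per library, with the group mean as a line. Sprr1a, S100a11 and Bin2 passed the limma test, Fcrls, Ctss and Csf1r did not, and in all 6 the day 3 points lie above the sham points. Other genes, not drawn, also had this separation.

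By fold change, the other genes at the extremes did not pass in the main fit, and several varied within groups. Among genes with gained peaks at an FPKM of at least 1, Gm10222 and Gm14326 had log2 fold changes of 1.60 and 0.998, and Nnt (mitochondrial transhydrogenase), Plin4 (perilipin 4) and Gm13611 had -0.87, -0.85 and -0.76. The value of Plin4 rested on sham library 3, at 7.79 against 0.578 and 0.461 in the other sham libraries. Without that library and day 7 library 3 it was 0.16. In that fit Nnt and Gm14326 passed, at -1.21 and 0.96 (limma adjusted p 0.0248 and 0.0385). Gm14326 had an FPKM of 3.25, 2.89 and 2.81 in sham and 5.99, 8.29 and 5.35 on day 3. Among genes with lost peaks, Epb41l4aos, Rps28 and Pabpc1l2a-ps had 0.80, 0.73 and 0.70, and Pcdhgb4, Gm26444 and Ranbp2 had -0.94, -0.50 and -0.44. Without the same libraries Epb41l4aos had 0.40, Rps28 0.43 and Ranbp2 -0.07, whose sham FPKM was 5.46, 5.68 and 12.7. The RNA of the writer and eraser genes above did not pass either: the log2 fold change was -0.19 for Mettl14, -0.16 for Virma, 0.05 for Wtap and 0.01 for Alkbh5.

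Sham library 3 differed from sham libraries 1 and 2 by a median log2 of -0.09 over the 2843 tested genes with gained peaks, 55.8% of them below 0, against -0.05 and 53.3% over all genes tested. The difference was larger in genes without a strict sham peak. In the 1068 tested genes with a gained peak and no strict sham peak, the median log2 fold change of day 3 over sham was 0.11, and 66.3% were above 0, against 54.9% of all genes tested. In the same genes sham library 3 differed from sham libraries 1 and 2 by a median log2 of -0.29, and day 7 library 3 from the other day 7 libraries by -0.22, where the latter median was -0.02 over all genes tested. Without these 2 libraries the median of those genes was 0.02, as for all genes. The number of genes passing in that fit was 1104 of 15545, 7.1%. Of all 15545 genes, 4.03% passed as higher and 3.07% as lower. Of 2845 tested genes with gained peaks, 124 rose and 131 fell, and of 490 with lost peaks, 16 rose and 15 fell, with medians of 0.01 for both. Among the genes named here, Mt2 (0.32), Ctss (0.47), Fcrls (0.58), Csf1r (0.40), Serpina3n (0.34), Ecel1 (0.21) and Macf1 (0.12) were among those that rose in that fit. Unc5b (-0.37), the m6A reader gene Prrc2a (-0.20), Bsn (-0.20) and Ly6c1 (-0.18) were among those that fell. Cox6a1, with a gained peak at its last base, had an FPKM of 252, 249 and 71.9 in sham and 272, 270 and 266 on day 3, and Rps12 had 33.3, 32.9 and 9.44 in sham and 35.1, 35.1 and 35.8 on day 3. The part of sham library 3 in the gained peaks of such genes was not tested.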

How the data were processed

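Peaks and RNA levels were taken as deposited. Per the file headers, the peak lists of the authors give fold enrichment as a ratio of enriched over input, and lg.p as a score, the base 10 logarithm of p. There was 1 list per group, and whether its 3 libraries were pooled is not given in the sources used here, nor are the peak caller and genome build. HISAT2, ChIPseeker, StringTie and edgeR are named in the submitters' processing notes without versions. RNA levels were FPKM of 12 input libraries, per the file headers, so depth is unknown and no counting error was computed for them.

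Peak starts, which count from 0 in the lists, were raised by 1. Of 26126 gene symbols matched to RefSeq GRCm38.p6, 99.9% overlapped the gene of that name. Strand was that of the peak's gene, and spans were compared. A peak was at an end when it reached the first or last base of its gene in the FPKM table. RNA was fitted with limma 3.58.1 in R 4.3.3 (trend, 4 group means, mean FPKM of at least 0.5, pseudocount 0.5, adjusted p below 0.05). Overlap and fit were tested on simulated data.

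Genes named were the 12 peaks of highest fold enrichment per direction, leaving out predicted genes and those with a mean FPKM below 1, over all genes and over those without a strict peak in the other list, 5 genes with most peaks (ties in symbol order), list members with gained or lost peaks, and for RNA those that passed and the 3 highest and 3 lowest. Members and lists were chosen with earlier results of these data known, and the 20 ontology terms after the files were opened. Peaks of smallest p were added after values were seen. Alternatives were other thresholds, overlaps, strand, list sizes, pseudocounts, filters, scalings, a replicate block and left-out libraries. Some genes that this rule names are not reported here, though counts include them.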

Additional observations from a re-analysis of the deposited data

How the results depend on the processing

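With the thresholds raised to a fold enrichment of 3 and a log10 p of -10, there were 901 gained peaks (870 genes) and 111 lost (110 genes). With every deposited peak there were 14630 gained (10445 genes) and 4455 lost (3746 genes). Counting as shared only peaks with a reciprocal overlap of 50% gave 9543 gained (7495 genes) and 8649 lost (5945 genes), so the excess of gained over lost peaks largely ends under that rule. With only strict peaks of the other list counting as shared, gained peaks were 4969 (4393 genes) and lost peaks 2649 (2366 genes). Shared exonic blocks, strand ignored and merged peaks kept each of these counts within 1.5 times. With equal numbers of peaks of smallest p in both lists, lost peaks were 848 (806 genes), and the gained count could not change by construction. The shares found again on days 7 and 14 fell to 32.1% and 75.8% (gained) and 29.7% and 27.7% (lost) with reciprocal overlap, and to 34.1%, 70.2%, 22.4% and 20.1% with strict later peaks.

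RNA calls numbered 9, and 2 with day 3 and sham libraries alone, 5 with a replicate block, 1 with close libraries averaged, 1104 without day 7 library 3 and sham library 3, and 3 to 27 with 1 day 3 or sham library left out: 3 without day 3 library 1 or 3, 4 without sham library 2 and 27 without sham library 3. Bin2 did not pass with the block (limma adjusted p = 0.121). No pairing by replicate number was seen: same-numbered deviations of day 3 and sham from their group means had correlations of -0.11, 0.058 and 0.089. The sham mean includes sham library 3, which stood apart, so these correlations cannot exclude a pairing.

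Median log2 fold changes stayed near 0. For gained genes they were 0.0398 and 0.0290 with pseudocounts of 0.1 and 1, 0.0288 without a filter, 0.0563 at a mean FPKM of 5, -0.0129 as TPM, -0.00865 with quantile scaling, 0.00717 without both libraries, 0.0512 averaged, and 0.00722 to 0.0518 with 1 library left out. For lost genes they were -0.00914 without a filter, 0.00459 at a mean FPKM of 5, -0.0626 as TPM, -0.0519 with quantile scaling, 0.0107 without both libraries, -0.0226 averaged, and -0.0298 to 0.0102 with 1 library left out. Plin4 ran from -1.40 to 0.16 with 1 library left out, turning without sham library 3, alone or with day 7 library 3, and Gm26444, listed at 0 in sham library 3 and day 3 libraries 1 and 3, from -2.13 to 0.83, turning to 0.31 without day 3 library 1 or 3, 0.83 without sham library 1 and 1.42 averaged. Causes of these shifts were not tested. No genome was used here, so the motif share over whole peaks was not run.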
